A study of Saccharomyces cerevisiae with 12 samples.

Results

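Nuclear tRNA genes are transcribed by RNA polymerase III, but 3′ READS also found polyadenylated 3′ ends in the DNA that follows them. The method maps the last genomic base that can be told from the poly(A) tail. The regions described here are the 400 nt downstream of tRNA genes on the strand of the gene. They were taken as every row that the 3′ READS profiles class as tRNA, 275 of 6198 rows, which leaves 5798 windows downstream of open reading frames (ORFs) and 77 downstream of snoRNA genes among the rest. The feature names carry 20 amino acids and 41 anticodons, and 2 genes have an undetermined anticodon. All 275 genes have the same coordinates in the R64 annotation of the SacCer3 genome, and none is mitochondrial. A name such as tR(ACG)D gives the amino acid, the anticodon, the chromosome as a letter (D is chromosome IV) and, where needed, a copy number.

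The study followed how RNA polymerase II (Pol II) pausing relates to poly(A) sites, and profiled poly(A) sites in budding yeast that lacks either Rpb4 or Ubp8. Rpb4 belongs to the stalk of Pol II, and Ubp8 removes ubiquitin from histone H2B as part of the SAGA complex. In rpb4Δ cells RPB4 is replaced by HIS3, in ubp8Δ cells UBP8 is replaced by HIS3, and both strains also carry a 3xFLAG tag on RPB3 with the NAT marker. Cultures grew in YPD to mid-log phase, and 2 biological replicates of each strain were pooled by the authors into 1 profile. No profile of the parent strain enters this comparison, so a difference is always between 2 mutants, and with 1 profile per strain no test between strains was possible. Intervals given below are exact 95% intervals of a ratio of reads and cover counting error only, since no molecular identifiers are named and PCR copies of a fragment cannot be told from separate molecules. The values step by whole reads, and 1 read is worth 0.395 RPM (reads scaled to library size) in rpb4Δ and 0.0614 RPM in ubp8Δ, which corresponds to 2529377 and 16276266 reads. A count of 0 therefore allows up to 1.19 RPM in rpb4Δ and 0.184 RPM in ubp8Δ, taking 3 reads as the limit. The deleted genes matched the labels: reads within the RPB4 ORF numbered 0 in rpb4Δ and 244 in ubp8Δ, and reads within the UBP8 ORF numbered 12 in rpb4Δ and 0 in ubp8Δ.

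Polymerase III stops at a short run of T on the coding strand, so that a new tRNA precursor ends in a tail of U. The La protein (Lhp1 in yeast) binds that tail, RNase P trims the 5′ leader, the endonuclease tRNase Z (Trz1) or the exonuclease Rex1 removes the 3′ trailer, and Cca1 adds the CCA end that yeast tRNA genes do not encode. Faulty precursors can receive a short poly(A) tail from the TRAMP complex (Trf4 or Trf5 with Air1 or Air2 and Mtr4), which hands them to the nuclear exosome, and a 3′ READS library can capture such tails as well as those made by the Pol II cleavage machinery.

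The run of T that ends the tRNA transcription unit stood out in the sequence. TTTTT occurred within the first 30 nt on the gene strand in 269 of the 275 tRNA windows (97.8%), against 14.6% of ORF windows, whereas AAAAA occurred in 7.64% of tRNA windows and 12.3% of ORF windows. The first run of at least 5 T started at a median of 4 nt after the gene and was 6 nt long at the median. Windows with much signal in the first 20 nt serve as examples of such a run, and their ends lay inside the run, before it or after it. Their first 30 bases follow, 5′ to 3′ from the first base after the gene, with the first run of at least 5 T in capitals (RefSeq R64 genome).
tL(CAA)K, chrXI:458671-458700, plus strand: tattttataTTTTTTTatattgtgttcaac
tW(CCA)P, chrXVI:56139-56168, minus strand: attaaTTTTTTTccccatctctcattatat
tE(UUC)I, chrIX:370489-370518, plus strand: tatgtttattttaTTTTTTTcatatccgct

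The strongest sites lay much farther downstream, and many of them were again in a run of T. The following 30 bases surround the position with most reads in rpb4Δ, which is base 20 of each line, and capitals mark the run of T that holds that position.
tR(ACG)D, 122 nt after the gene, chrIV:619837-619866, minus strand: ggagaagttgtcgagTTTTTTTaaagtaca
tD(GUC)O, 146 nt, chrXV:572156-572185, plus strand: catatctaagtaaagTTTTTTTTTTTTTag
tP(UGG)M, 186 nt, chrXIII:195872-195901, minus strand: ataattaataactacTTTTTTTataatgaa
tK(UUU)D, 145 nt, chrIV:359798-359827, plus strand: aaataaatgtagcagtttcTTTTTTgttta
tG(GCC)D2, 123 nt, chrIV:993006-993035, plus strand: aatgattaagcagTTTTTTTTgttaataaa
tT(AGU)N1, 126 nt, chrXIV:104984-105013, plus strand: atacatatacttaacTTTTTaacatgataa
For comparison, the main positions of other strong windows were not in such a run, and here the capital is the base at the position itself.
tT(AGU)C, 339 nt, chrIII:295876-295905, plus strand: tacctaataatatagatttTgccaacaatg
tV(AAC)L, 79 nt, chrXII:687770-687799, minus strand: ctgctattcaatagtaaggGcttctttccc

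Most tRNA windows held some signal, at a low level. At least 1 read fell in 208 windows in rpb4Δ (75.6%) and 232 windows in ubp8Δ (84.4%), against 91.9% and 95.5% of ORF windows. Signal was seen in both strains in 186 windows, in rpb4Δ alone in 22, in ubp8Δ alone in 46 and in neither strain in 21. The median over all 275 windows was 1.98 RPM in rpb4Δ and 1.23 RPM in ubp8Δ, where the medians of ORF windows were 30.8 and 29.1 RPM. Since ubp8Δ was sequenced more deeply, detection counts are not on equal terms between the strains, but RPM values are. Together the windows held 12172 reads or 4812 RPM in rpb4Δ and 27677 reads or 1700 RPM in ubp8Δ, which is 0.611% and 0.211% of the reads in all windows. The signal was uneven: the 3 windows with most reads held 43.6% of tRNA window reads in rpb4Δ and 50.7% in ubp8Δ. Detected windows had a median of 3 positions with reads in rpb4Δ and 4 in ubp8Δ, and a window had at most 47 such positions in rpb4Δ and 52 in ubp8Δ.

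**Figure D1:**
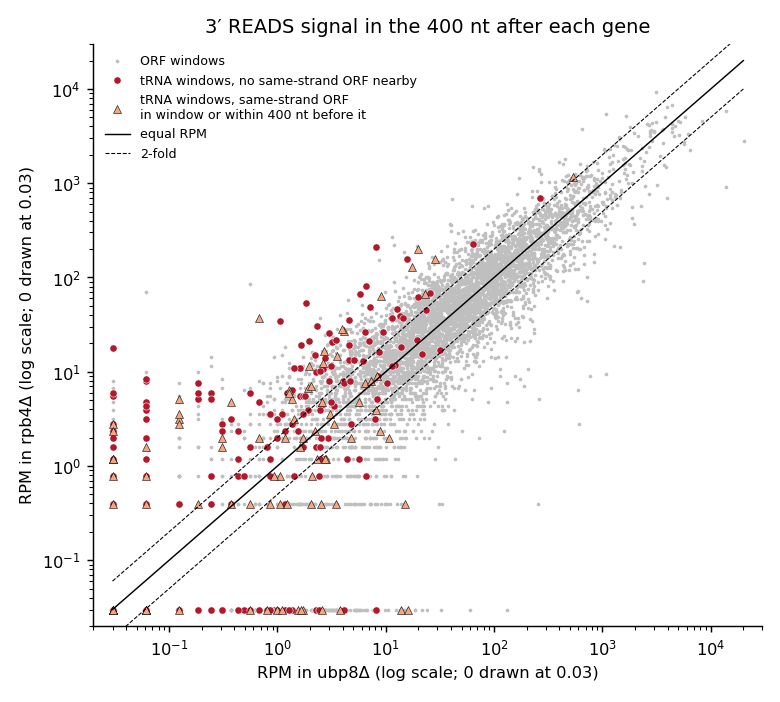
Signal in the 400 nt after each gene, in rpb4Δ (vertical axis, RPM, log scale) against ubp8Δ (horizontal axis, RPM, log scale), with values of 0 drawn at 0.03; red circles are tRNA windows with no same-strand ORF in the window or in the 400 nt before it, orange triangles are the other tRNA windows, and grey dots are ORF windows. Of the tRNA windows with a mean of at least 2 RPM, 105 of 131 lie above the diagonal of equal RPM, and the median tRNA window is at 1.98 RPM in rpb4Δ and 1.23 RPM in ubp8Δ.

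The summed tRNA signal was 2.83-fold higher in rpb4Δ than in ubp8Δ, and 3.24-fold higher without the 3 windows with most reads. A fold was computed for windows with a mean of at least 2 RPM over both strains, which 131 of the 275 tRNA windows reached. Of these, 86 (65.6%) were at least 2-fold higher in rpb4Δ and 14 (10.7%) were at least 2-fold lower, with a median fold of 3.22. Over all 5321 rows that passed the same limit, 19.2% were at least 2-fold higher and 18.3% at least 2-fold lower, and the median fold was 1.04. ORF windows were at 18.2% higher and 17.6% lower. The snoRNA windows ran the other way, with 7.04% higher and 70.4% lower of 71. Of the 131 windows, 124 had reads in both strains and so an interval for counting error. It lay wholly above 1 in 83 of them and wholly below 1 in 10.

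The excess in rpb4Δ was present at every signal level. Among windows with a mean of 2 to 10 RPM, 51 of 88 tRNA windows were at least 2-fold higher, against 221 of 935 ORF windows. Between 10 and 50 RPM the counts were 27 of 35 tRNA windows and 341 of 1858 ORF windows, and at 50 RPM or more they were 8 of 8 tRNA windows and 367 of 2314 ORF windows. No tRNA window with a mean of at least 10 RPM was 2-fold lower in rpb4Δ. Scaling to the reads in ORF windows multiplied every fold by 1.02.

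**Figure D2:**
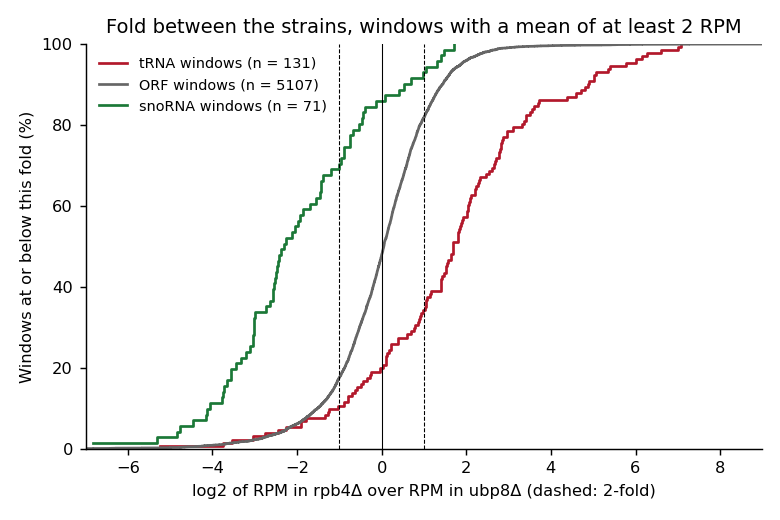
Cumulative share of windows (vertical axis, percent) at or below a given log2 fold of rpb4Δ over ubp8Δ (horizontal axis) for tRNA, ORF and snoRNA windows with a mean of at least 2 RPM; where a strain had no read, 3 reads were used as a bound, and dashed lines mark 2-fold. The tRNA curve is shifted to the right, with 65.6% of windows at least 2-fold higher in rpb4Δ, against 18.2% of ORF windows.

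To see how much of the signal lay in or just after annotated Pol II genes, the coordinates of same-strand ORFs were compared with the windows. The body of an annotated same-strand ORF overlapped 88 windows, and the 400 nt after the stop codon of such an ORF overlapped 12, of which 8 belonged to both sets. The remaining 183 windows had neither, and 97 windows had no ORF on either strand. Few of the summed reads lay in annotated same-strand ORFs: 1.16% of tRNA window reads in rpb4Δ and 6.36% in ubp8Δ, with a further 1.90% and 2.05% in the 400 nt after an ORF. The 3 windows with most reads had none inside such an ORF and weigh heavily in these shares. Over the 88 windows that an ORF body overlaps, the shares inside ORFs were 2.70% in rpb4Δ and 13.4% in ubp8Δ. Of the 131 windows with a mean of at least 2 RPM, 10 had more than 50% of their ubp8Δ reads inside a same-strand ORF. Reads inside and outside these ORFs differed between the strains in opposite directions. Reads inside same-strand ORFs came to 55.7 RPM in rpb4Δ and 108 RPM in ubp8Δ, a fold of 0.516 (interval 0.431 to 0.612), whereas reads elsewhere in the windows came to 4757 and 1592 RPM, a fold of 2.99 (2.92 to 3.05). Of the 14 windows that were 2-fold lower in rpb4Δ, 6 had more than 50% of their ubp8Δ reads inside a same-strand ORF, against 3 of the 86 that were higher. In tG(GCC)F2, for example, 238 of 244 ubp8Δ reads lay within YFR016C, and the window held 1 read in rpb4Δ.

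Without the 92 windows touched by a same-strand ORF or its 400 nt, the pattern was the same in direction. Of the 94 remaining windows with a mean of at least 2 RPM, 65 were at least 2-fold higher in rpb4Δ and 6 at least 2-fold lower, and the median fold was 3.23. Windows with such an ORF end within 1000 nt upstream were then left out as well, which gave 55 higher and 5 lower of 81. Neighbouring tRNA genes shared window positions in 4 pairs, and 1 window held another annotated RNA gene on its strand (SNR33, a snoRNA, after tG(GCC)C). Unannotated transcripts were not examined.

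Positions were grouped in stretches of unlike width (20, 30, 50 or 100 nt), so their shares are not densities. Among these, the second 100 nt after the gene, beyond 100 and up to 200 nt, held the most 3′ ends in tRNA windows, as in ORF windows. Weighting every detected window equally, its share was 42.8% in rpb4Δ and 32.1% in ubp8Δ, against 42.7% and 41.0% in ORF windows. Of all tRNA window reads it held 74.6% in rpb4Δ and 68.5% in ubp8Δ, but 55.3% and 37.7% without the 3 windows with most reads. In equal bins of 20 nt, tRNA windows had their largest share at 161 to 180 nt in rpb4Δ (10.5%) and 81 to 100 nt in ubp8Δ (9.27%). ORF windows had it at 81 to 100 nt in both (13.3% and 12.5%). In windows with at least 20 reads the highest position lay at a median of 156 nt in rpb4Δ (67 windows) and 167 nt in ubp8Δ (138 windows), while ORF windows peaked nearer to the stop codon, at 116 and 119 nt. A smaller group of ends lay directly after the gene. The first 20 nt held a mean share of 10.1% in rpb4Δ and 7.87% in ubp8Δ, against 1.2% and 1.82% in ORF windows. These shares rest on windows with few reads, as 13 windows in rpb4Δ and 5 in ubp8Δ had reads there only. They were 1.97% in rpb4Δ and 3.55% in ubp8Δ over windows with at least 20 reads, and 0.994% and 1.14% of all tRNA window reads, so the order of the strains turned round. The last 100 nt held less of the signal in rpb4Δ (9.28%) than in ubp8Δ (20.9%), and the shares without windows touched by same-strand ORFs were 7.85% and 20.9%. Every stretch of the window had more RPM in rpb4Δ, between 1.91-fold in the last 100 nt and 3.26-fold at 21 to 50 nt. Without windows touched by same-strand ORFs the fold was 2.20 at 21 to 50 nt and highest, at 3.71, in the second 100 nt.

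**Figure D3:**
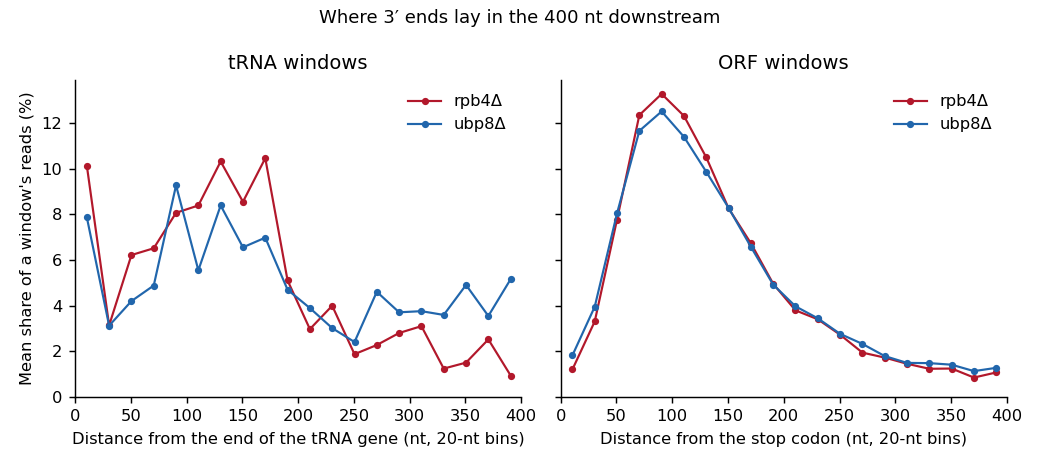
Mean share of a window's reads (vertical axis, percent) in 20-nt bins by distance from the end of the tRNA gene (left panel) or from the stop codon (right panel), in rpb4Δ (red) and ubp8Δ (blue), over all windows with a read. In tRNA windows the first bin holds 10.1% in rpb4Δ and 7.87% in ubp8Δ and a second, broad rise ends near 200 nt, whereas ORF windows have a single peak near 100 nt and little signal in the first bin.

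The main position of a window often differed between the strains. Of 62 tRNA windows with at least 20 reads in each strain, 14 (22.6%) had the same highest position and 24 (38.7%) had highest positions within 5 nt, against 60.5% and 68.2% of 4248 ORF windows with the same minimum. Beyond that minimum the windows were not matched for reads. Over all windows the median was 30.8 RPM in rpb4Δ and 29.1 RPM in ubp8Δ for ORFs, against 1.98 and 1.23 RPM for tRNA genes. The highest position is less certain with few reads, so the lower agreement may partly reflect depth, which was not tested. Of the positions with reads, 31.7% in rpb4Δ and 27.4% in ubp8Δ were used in the other strain. These positions held 71.6% of the reads in rpb4Δ and 69.2% in ubp8Δ, where the 3 fullest windows weigh heavily. The same shares were not computed for ORF windows, so they cannot be read as particular to tRNA windows. The part of depth in them was not tested. The mean position of a window moved by a median of -0.18 nt in rpb4Δ relative to ubp8Δ.

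Ends in the first 20 nt, where trailers of tRNA precursors end, were few. They numbered 121 reads in 42 windows in rpb4Δ and 315 reads in 50 windows in ubp8Δ, and in RPM they were 2.47-fold higher in rpb4Δ (1.99 to 3.06). Without windows touched by a same-strand ORF or its 400 nt, 73 of these reads in rpb4Δ and 174 in ubp8Δ remained, 2.70-fold higher in rpb4Δ. Most of the 121 and 315 reads, 64.5% in rpb4Δ and 66.3% in ubp8Δ, lay inside the first run of T. The position with most reads was 7 nt after the gene in rpb4Δ and 6 nt in ubp8Δ, but reads at these positions were not all in a run. In rpb4Δ, 7 reads at 7 nt after tE(UUC)I lay before its run. In ubp8Δ, 35 reads at 6 nt after a tryptophan gene other than tW(CCA)P lay before its run. In tW(CCA)P, a tryptophan tRNA gene, position 7, the second T of its run, held 7 of 20 reads in rpb4Δ and 31 of 76 in ubp8Δ. The windows of tL(CAA)K and tE(UUC)I differed more between the strains: tL(CAA)K had 16 reads in the first 20 nt in rpb4Δ and 1 in ubp8Δ, and tE(UUC)I had 11 in rpb4Δ and 4 in ubp8Δ. In tL(CAA)K, position 14, inside its run, held 8 of the 16 rpb4Δ reads, and the others lay outside the run. Its ubp8Δ read lay at 20 nt, after the run. In tE(UUC)I, 7 of the 11 rpb4Δ reads lay at 7 nt and all 4 ubp8Δ reads at 12 nt, both before its run. Inside its run it had 3 reads in rpb4Δ, at 17 nt. Of the 67 windows with a read in the first 20 nt in either strain, 25 had one in both and 13 of those shared a position.

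The count of such ends is limited by how reads were placed. The authors aligned 17 bases and kept unique matches, and multicopy tRNA genes repeat their own last bases, so a short trailer often could not be placed at all. The 17 bases that end 1 nt after the gene recur elsewhere in the genome for 238 of the 275 genes, those ending at 5 nt for 150, at 8 nt for 104, at 10 nt for 49 and at 20 nt for 30. None of the recurring positions held a read. Over whole windows 4.55% of positions were affected, with more in single windows.

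Runs of T also marked the strong sites farther away. Runs of at least 5 T held 50.2% of tRNA window reads in rpb4Δ and 46.1% in ubp8Δ, against 2.78% and 3.24% of ORF window reads. Beyond the first 20 nt the shares were 49.99% in rpb4Δ and 45.7% in ubp8Δ, although such runs make up 5.15% of the positions other than A there in tRNA windows and 4.95% in ORF windows. A few windows carried much of this, as the shares were 34.6% in rpb4Δ and 22.0% in ubp8Δ without the 3 windows with most reads. They were 29.7% in rpb4Δ and 24.1% in ubp8Δ without windows touched by same-strand ORFs. Averaged over windows with at least 20 reads, the share was 28.6% in rpb4Δ and 20.9% in ubp8Δ, against 3.46% and 3.89% in ORF windows. A minority of windows carried these means: the medians were 9.52% in rpb4Δ and 0.561% in ubp8Δ, and 25 of 67 windows in rpb4Δ and 67 of 138 in ubp8Δ had no read in such a run. The highest position lay in a run of T in 22 of 67 windows in rpb4Δ (32.8%) and 34 of 138 in ubp8Δ (24.6%), against 3.19% and 3.53% of ORF windows. Summed over all windows, signal in such runs was 3.08-fold higher in rpb4Δ and signal outside them 2.61-fold higher. The 3 fullest windows weigh heavily in both sums. Without them the share in runs differed more between the strains (34.6% in rpb4Δ and 22.0% in ubp8Δ). Conversely, 35.2% of tRNA window reads in rpb4Δ and 33.4% in ubp8Δ were placed just before a genomic A, against 84.0% and 83.4% of ORF window reads. The window medians were closer, at 45.5% in rpb4Δ and 54.0% in ubp8Δ, against 90.9% and 90.1% in ORF windows. Of the positions other than A, 28.8% in tRNA windows and 30.4% in ORF windows precede an A. This share is tied to that in runs of T, since inside a run all but the last base are followed by T. In tRNA windows 0 reads were placed on a genomic A in either strain. An A of the genome cannot be told from the tail, so an RNA placed just before an A may have ended on a following A. TATATA, a form of the efficiency element of yeast poly(A) sites, was present within the 100 nt up to the highest position in 14 of 67 windows in rpb4Δ (20.9%) and 20 of 138 in ubp8Δ (14.5%), against 44.8% and 41.5% of ORF windows. A match or its absence describes the letters in these stretches only. The comparison of runs of T was chosen after the positions had been seen.

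The windows with the largest signals differed in how widely their ends were spread. The window of tR(ACG)D, one of the arginine tRNA genes, had 1171 RPM in rpb4Δ (2963 reads) and 534 RPM in ubp8Δ (8684 reads), 2.20-fold higher (2.11 to 2.29). Position 122 alone held 38.2% of its reads in rpb4Δ and 43.1% in ubp8Δ, and runs of T held 95.1% and 90.6%. SLU7, a splicing factor gene on the same strand, starts at 324 nt, beyond this cluster. The window of tR(UCU)G2, another arginine gene, had 702 RPM in rpb4Δ and 266 RPM in ubp8Δ, 2.64-fold higher (2.50 to 2.79). Its ends were spread over 45 positions in rpb4Δ and 52 in ubp8Δ, and its highest positions, 172 nt in rpb4Δ and 147 nt in ubp8Δ, held 10.6% and 9.93% of the reads. Runs of T held 20.3% of its reads in rpb4Δ and 20.5% in ubp8Δ, and the position at 172 nt lay in such a run. The ends after tR(UCU)G2 thus formed a broad zone, and those after tR(ACG)D a cluster of a few bases.

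The aspartate gene tD(GUC)O had a cluster as narrow as that of tR(ACG)D. Its window held 227 RPM in rpb4Δ and 63.2 RPM in ubp8Δ, 3.59-fold higher (3.24 to 3.98), with its highest position at 146 nt in both strains, and runs of T held 97.9% of reads in rpb4Δ and 97.3% in ubp8Δ. The proline gene tP(UGG)M had 203 RPM in rpb4Δ and 19.7 RPM in ubp8Δ, 10.3-fold higher (8.95 to 11.9), with the highest position at 186 nt in both strains. The lysine gene tK(UUU)D had 158 RPM in rpb4Δ and 15.8 RPM in ubp8Δ, 9.99-fold higher (8.52 to 11.7), with the highest position at 145 nt in both. The glycine gene tG(GCC)D2 had 128 RPM in rpb4Δ and 17.5 RPM in ubp8Δ, 7.29-fold higher (6.20 to 8.58), with the highest position at 123 nt in both. In these 4 windows the site was the same base in both strains while the window's level was higher in rpb4Δ by different factors. Same-strand ORFs start beyond the site in the windows of tP(UGG)M (VPS71, from 313 nt) and tG(GCC)D2 (YDR262W, from 232 nt). The proline gene tP(UGG)O1 had 66.8 RPM in rpb4Δ and 23.2 RPM in ubp8Δ, and YOL013W-A, an ORF on the same strand, covers the first 40 nt of its window. All 169 reads in rpb4Δ and all 377 in ubp8Δ lay in the 400 nt after that ORF.

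**Figure D4:**
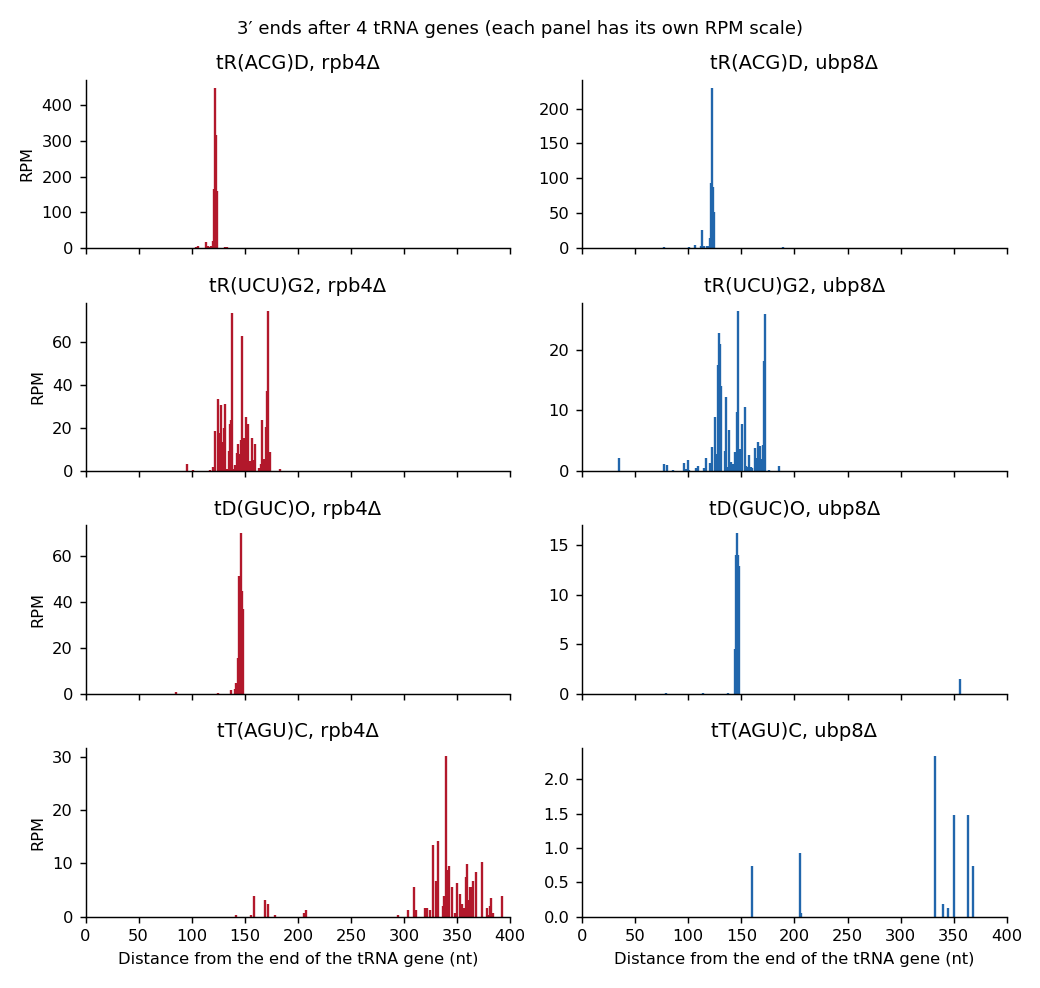
RPM at each position (vertical axis, each panel on its own scale) by distance from the end of the tRNA gene (horizontal axis, nt), in rpb4Δ (left) and ubp8Δ (right), for tR(ACG)D, tR(UCU)G2, tD(GUC)O and tT(AGU)C. The clusters at 122 nt after tR(ACG)D and 146 nt after tD(GUC)O are a few bases wide in both strains, while the ends after tR(UCU)G2 and tT(AGU)C are spread.

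Other strong windows differed by larger or smaller factors, and only that of tR(ACG)K among them held a same-strand ORF (BCH2, from 324 nt). The threonine gene tT(AGU)C had 210 RPM in rpb4Δ and 8.05 RPM in ubp8Δ, 26.1-fold higher (21.5 to 31.9), with its highest position at 339 nt in rpb4Δ and 332 nt in ubp8Δ and no read in a run of T in either strain. The threonine gene tT(AGU)N1 had 81.0 RPM in rpb4Δ and 6.64 RPM in ubp8Δ, 12.2-fold higher (9.63 to 15.6), and there runs of T held 85.4% of reads in rpb4Δ and 32.4% in ubp8Δ. The aspartate gene tD(GUC)G2 had 66.4 RPM in rpb4Δ and 5.84 RPM in ubp8Δ, 11.4-fold higher (8.80 to 14.8). Among the others, the folds were 5.53 for tR(ACG)K, 3.70 for tV(AAC)L, 3.10 for tK(CUU)M, 2.69 for tK(UUU)O and 1.91 for tA(UGC)L. With only the first 200 nt counted, 4 of these folds moved by over 1.5 times, to 4.29 for tA(UGC)L, 2.89 for tR(ACG)K, 14.5 for tT(AGU)C and 17.2 for tD(GUC)G2.

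Among windows with at least 20 reads in each strain, the largest fold was 29.2 (19.5 to 44.9) for the asparagine gene tN(GUU)G, with 53.8 RPM in rpb4Δ and 1.84 RPM in ubp8Δ. It was followed by tT(AGU)C and by the phenylalanine gene tF(GAA)P1, with 30.8 RPM in rpb4Δ and 2.33 RPM in ubp8Δ. In tF(GAA)P1 the highest position lay in a run of T at 85 nt in rpb4Δ and before that run, at 78 nt, in ubp8Δ. The 3 smallest folds were also in windows with no same-strand ORF or its 400 nt. The histidine gene tH(GUG)G2 had 17 RPM in rpb4Δ and 31.3 RPM in ubp8Δ, a fold of 0.543 (0.388 to 0.741). Its highest positions lay close to the far end of the window, at 393 nt in rpb4Δ and 399 nt in ubp8Δ. The first 200 nt held only 2 reads in rpb4Δ and 6 in ubp8Δ. The fold there, 2.14, therefore gives no direction. A second asparagine gene, tN(GUU)P, had 15.4 RPM in rpb4Δ and 21.8 RPM in ubp8Δ, a fold of 0.707 (0.494 to 0.986). The tyrosine gene tY(GUA)J1 (SUP7) had 11.9 RPM in rpb4Δ and 12.1 RPM in ubp8Δ, a fold of 0.980 (0.644 to 1.44), but 41.75% of the positions of its window recur elsewhere and could hold no read. Copies with the same anticodon thus stood at both ends, since tN(GUU)G and tN(GUU)P share theirs. Windows with reads in a single strain included tE(UUC)G1, with 45 reads in rpb4Δ and 0 in ubp8Δ, and tS(GCU)O, with 0 in rpb4Δ and 259 in ubp8Δ (both chosen after their values were seen as the fullest such windows).

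Grouped by amino acid, arginine tRNA genes led the summed signal, with 44.1% of it in rpb4Δ and 51.2% in ubp8Δ, because tR(ACG)D and tR(UCU)G2 belong to them. Medians gave another order. The 7 histidine windows had the highest median in each strain, 11.5 RPM in rpb4Δ and 3.13 RPM in ubp8Δ, and the 4 cysteine windows were low in both, at 0.198 RPM in rpb4Δ and 0.0614 RPM in ubp8Δ. These medians were small next to the range within a group: the 19 arginine windows had a median of 4.74 RPM in rpb4Δ and 2.09 RPM in ubp8Δ, and a highest value of 1171 and 534 RPM. At the anticodon level the 6 windows of tR(ACG) genes ran between 0.791 and 1171 RPM in rpb4Δ and between 0.369 and 534 RPM in ubp8Δ, although the tRNAs they encode share their anticodon. The 16 aspartate windows, all of anticodon GUC, had a median of 2.37 RPM in rpb4Δ and 1.66 RPM in ubp8Δ, with tD(GUC)O far above the rest.

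**Figure D5:**
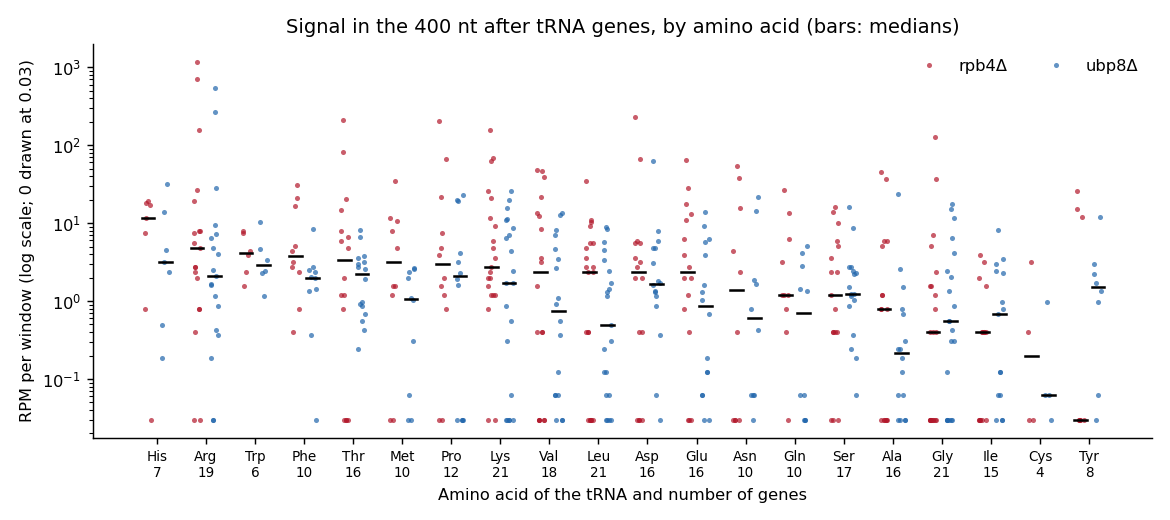
RPM of each tRNA window (vertical axis, log scale, 0 drawn at 0.03) by the amino acid of the tRNA (horizontal axis, with the number of genes), in rpb4Δ (red, left of each pair) and ubp8Δ (blue, right); black bars are medians. Arginine windows reach 1171 RPM in rpb4Δ and 534 RPM in ubp8Δ while tryptophan windows stay between 1.58 and 7.91 RPM in rpb4Δ and between 1.17 and 10.2 RPM in ubp8Δ, and the median of histidine windows is 11.5 RPM in rpb4Δ and 3.13 RPM in ubp8Δ.

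The direction of the fold was shared by most amino acids. Among windows with a mean of at least 2 RPM, 8 of 8 threonine windows, 8 of 9 valine windows, 7 of 9 glutamate windows, 8 of 12 lysine windows and 7 of 11 arginine windows were at least 2-fold higher in rpb4Δ, beside 19.2% of all rows. Other amino acids gave other counts: 4 of 8 glycine windows were at least 2-fold higher and 3 lower, 1 of 3 isoleucine windows was higher and 1 lower, and 0 of 4 tryptophan windows were past 2-fold in either direction. The 6 tryptophan windows had 1.58 to 7.91 RPM in rpb4Δ and 1.17 to 10.2 RPM in ubp8Δ. The 121 reads in the first 20 nt in rpb4Δ were led by leucine windows with 20, glutamate with 18 and phenylalanine with 17. In ubp8Δ the tryptophan windows held 110 of the 315 such reads, followed by threonine with 73 and serine with 43. A few copies carried these sums: tT(UGU)P, which was chosen after its value was seen, held 1 of 2 threonine reads in rpb4Δ and 54 of 73 in ubp8Δ, all of them inside a same-strand ORF that covers the start of its window. With groups of 2 to 21 genes and 1 profile per strain, differences between amino acids were not tested.

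Reads inside the tRNA genes themselves were rare. They numbered 21 in 9 genes in rpb4Δ and 435 in 28 genes in ubp8Δ, or 0.172% and 1.55% of the reads in gene and window together, so this share was lower in rpb4Δ, opposite to the windows. The serine gene tS(CGA)C (SUP61), which has a single copy, had 9 reads in rpb4Δ and 68 in ubp8Δ. The leucine gene tL(CAA)L had 0 and 54, and tR(ACG)J had 2 and 38. The windows of the last 2 genes lie in the 400 nt after a same-strand ORF, ERF2 before tL(CAA)L and MEF2 before tR(ACG)J. Of the bases of a tRNA gene, a median of 82.4% end a recurring stretch of 17 bases, so ends within multicopy genes could mostly not be placed.

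The 3′ windows of genes that make and process tRNA were near the share of all windows. Of 38 listed ORFs for polymerase III and its factors, tRNA end processing, TRAMP, the exosome and tRNA export, 36 were present with a mean of at least 2 RPM in their 3′ windows, of which 7 were at least 2-fold higher and 6 at least 2-fold lower in rpb4Δ, with a median fold of 1.08. Over all rows the shares were 19.2% higher and 18.3% lower, so these counts are no result about the listed genes. RPO31, the largest polymerase III subunit, had 8.70 RPM in rpb4Δ and 0.983 RPM in ubp8Δ, from 22 and 16 reads. Other subunit genes of polymerase III went both ways, with folds of 2.70 for RPC53, 0.672 for RET1 and 0.395 for RPC82. TRF5, a poly(A) polymerase of TRAMP, had 290.2 RPM in rpb4Δ and 70.6 RPM in ubp8Δ. AIR1, an RNA-binding partner in that complex, had 75.9 and 25.3 RPM. The other listed TRAMP genes were within 2-fold: AIR2 at 1.82, MTR4 at 0.969 and PAP2 (Trf4) at 0.846. TRZ1, tRNase Z, had 24.1 RPM in rpb4Δ and 58.2 RPM in ubp8Δ, and MAF1, a repressor of polymerase III, had 7.51 and 31.5 RPM. CCA1, which adds the CCA end, had 48.2 RPM in rpb4Δ and 24.0 RPM in ubp8Δ.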

How the data were processed

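3′ READS profiles of rpb4Δ and ubp8Δ cells were used, and no NET-seq sample was. Per the study's methods, the authors trimmed leading T, mapped the following 17 bases to SacCer3 (Bowtie, unique and perfect matches), kept reads with non-templated A and pooled replicates. The deposited values are RPM per window. Position columns name no unit and were read, from their values, as percent of the window's highest position. From the deposited RPM, whole reads were recovered: 4611 of 4611 highest-position values in rpb4Δ and 4917 of 4917 in ubp8Δ (100%) were multiples of 1 read within 0.005 RPM. No count test could be run with 1 profile per strain. Folds are rpb4Δ over ubp8Δ, with 3 reads in place of 0. Named windows are the 10 highest in mean RPM without a same-strand ORF or its 400 nt, the 5 highest others, the 3 largest and 3 smallest folds with 20 reads per strain, the 5 highest at 1 to 20 nt (of which 2 are not reported here) and the 3 highest inside the gene. Members, lists and this rule were chosen with earlier results of these data known. Sequences come from the RefSeq R64 genome. Software was Python 3.11.15, numpy 2.4.6, pandas 2.3.3, scipy 1.17.1 and matplotlib 3.10.9, and scripts were tested on simulated data.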

Additional observations from a re-analysis of the deposited data

How the results depend on the processing

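No paired analysis was possible because the 2 replicates of each strain were pooled into 1 profile, and leaving out a replicate could not be run for the same reason. No mitochondrial window and no window with at least 90% repeated positions was present, so these alternatives removed nothing. Of the values that describe the windows, 37 of the alternatives moved them little and 40 moved them further. The order of the strains turned round for the share at 1 to 20 nt, and for detection at equal depth. The median was 3.76 RPM in rpb4Δ and 1.72 RPM in ubp8Δ over detected windows, and 2.53 and 1.53 scaled to ORF-window reads. At the depth of rpb4Δ, ubp8Δ would be expected to show 189.7 detected windows, against 208 in rpb4Δ. The expected median at that depth was 1.90 positions over all ubp8Δ windows detected at full depth. That set includes windows that would have no read, so the value cannot be set against the 3 in rpb4Δ. Of the windows detected in ubp8Δ at full depth, 154 had no same-strand ORF or its 400 nt. Reads inside genes were 0.0266% in rpb4Δ over genes with at least 20 reads. With an overlap of at least 100 nt, 58 windows held a same-strand ORF.

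Without a filter on level, 153 windows counted as at least 2-fold higher in rpb4Δ and 31 as lower, but these counts do not give the direction of every window. They cover 46 windows with reads in ubp8Δ alone and 22 in rpb4Δ alone, where 3 reads stood in place of 0. A window with few reads in ubp8Δ alone can so count as higher in rpb4Δ. Windows at least 2-fold higher and lower in rpb4Δ numbered 35 and 0 at 10 RPM or more. The numbers were 51 and 14 at 2 to 10 RPM and 27 and 0 at 10 to 50 RPM. At 50 RPM or more they were 8 and 0. Without windows with a same-strand ORF end within 1000 nt upstream they numbered 55 and 5. The lower windows numbered 8 where the interval also had to leave out 1, 6 without windows touched by a same-strand ORF or its 400 nt, and 3 in the first 200 nt.

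The share in the second 100 nt was 74.6% of summed reads in rpb4Δ and 68.5% in ubp8Δ, and in rpb4Δ 52.4% over windows with at least 20 reads and 55.3% of summed reads without the 3 windows with most reads (37.7% in ubp8Δ). The share at 1 to 20 nt was 0.994% of summed reads in rpb4Δ and 1.14% in ubp8Δ, 1.97% and 3.55% over windows with at least 20 reads, and 1.76% and 2.31% of summed reads without those 3 windows. Runs of T held 55.3% of reads in rpb4Δ and 53.5% in ubp8Δ with 4 or more T, 42.9% and 40.6% with 6 or more, 34.6% and 22.0% without the 3 windows, and 29.7% and 24.1% without same-strand ORFs. The fold of tY(GUA)J1 crossed 1 on ORF scaling, at 1.00. That of tH(GUG)G2 was 2.14 in the first 200 nt, but from only 2 reads in rpb4Δ and 6 in ubp8Δ. Alternatives on upstream ORFs, signal levels, runs of T and the 3 windows were chosen after the data were seen. Why these values moved was not tested.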
